A study of Homo sapiens with 12 samples.

Results

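The SOX transcription factors described here are SOX2, SOX4, SOX7, SOX9, SOX12, SOX13, SOX15, SOX18 and SOX21, 9 of the 23064 gene symbols in the deposited tables. They were picked by symbol. The family was singled out because SOX2 was higher after KMT9α knockdown in both cell lines studied, by a far larger fold in CAL-29. The knockdown values of these 9 genes are therefore given as a description, without p-values. For each symbol the transcript with the most counts was used.

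RNAseq was performed on CAL-29 and 5637, established human bladder carcinoma cell lines, to ask how the transcriptome responds to loss of KMT9α. KMT9α, encoded by N6AMT1, is the catalytic subunit of the histone lysine methyltransferase KMT9. Each line was treated with a control siRNA (siCtrl) or with an siRNA against KMT9α (siKMT9α), and RNA was harvested 3 days later, giving 4 groups of 3 libraries and 12 libraries in all. Per the labels both lines are of wild-type genotype, so the groups within a line are set apart by the siRNA. The methods give a different transfection reagent and siRNA concentration for each line, so the line and these conditions cannot be told apart. The labels do not say that replicates came from separate cultures, so the error given here covers the spread between libraries, which may be technical.

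Total counts per library lay between 24479488 and 35148657.5 on 1 transcript per symbol. Levels are given as CPM, the count scaled to a fixed library total, after TMM scaling over the 12 libraries. In CAL-29, siCtrl replicate 1 stood apart: the chi-square of its counts against the other siCtrl replicates, divided by the degrees of freedom, was 8.19 and 12.3, where 1 is sampling noise and every other pair of replicates had a lower value, down to 2.25. Without that library the log2 difference of SOX2 in CAL-29 was 5.02 and that of SOX9 was -0.92, and the same number of members was called in CAL-29. N6AMT1 was at 11.1, 9.97 and 9.42 CPM in the CAL-29 siCtrl libraries and at 2.78, 2.88 and 1.96 CPM in the siKMT9α libraries. The 5637 libraries had 13.7, 13.4 and 13.5 CPM with siCtrl and 3.87, 2.26 and 2.65 CPM with siKMT9α. The targeted mRNA fell in both lines, to 0.251 times its control level in CAL-29 (adjusted p = 1.38e-10, edgeR quasi-likelihood test) and to 0.215 times in 5637 (adjusted p = 2.06e-15). All 9 of 9 epithelial and urothelial markers (KRT5, KRT7, KRT8, KRT18, KRT19, EPCAM, CDH1, TP63 and GATA3) had a mean of at least 1 CPM in every group. Their summed level was 12893 to 13602 CPM with siCtrl and 6291 to 6453 CPM with siKMT9α in CAL-29. For 5637 it was 8978 to 9387 CPM with siCtrl and 6209 to 6433 CPM with siKMT9α. The part of this in the SOX values was not tested. In bulk RNA, fewer cells that express a gene and less of its RNA per cell cannot be told apart.

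SOX proteins bind DNA through a high-mobility-group box, which recognises a short core around AACAAT, bends the DNA and usually acts together with a partner factor such as a POU or PAX protein. The family is divided into lettered groups by the sequence of that box, and members of a group often share functions. SOX2 and SOX21 belong to the SOXB group and are best known from pluripotent and neural progenitor cells, SOX4 and SOX12 form part of SOXC, SOX13 is a SOXD protein together with SOX5 and SOX6, SOX9 is a SOXE protein, SOX7 and SOX18 are SOXF proteins of the endothelium, and SOX15 is the SOXG protein. SOX2 is also a driver of squamous epithelial identity and is gained in many squamous carcinomas. SOX4 lies in a stretch of chromosome 6 that is often gained in bladder cancer.

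The promoters of SOX2 and SOX4 are shown because these genes were, per kilobase, the lowest and the highest of the 9 in CAL-29 control cells. Both are RefSeq sequences of GRCh38.p14 on the plus strand, from 250 bases before to 50 bases after the start of the gene, and capitals mark the CCAAT box in either orientation (CCAAT or ATTGG). The SOX2 window is chr3:181711675-181711974 and the SOX4 window is chr6:21593501-21593800.
SOX2: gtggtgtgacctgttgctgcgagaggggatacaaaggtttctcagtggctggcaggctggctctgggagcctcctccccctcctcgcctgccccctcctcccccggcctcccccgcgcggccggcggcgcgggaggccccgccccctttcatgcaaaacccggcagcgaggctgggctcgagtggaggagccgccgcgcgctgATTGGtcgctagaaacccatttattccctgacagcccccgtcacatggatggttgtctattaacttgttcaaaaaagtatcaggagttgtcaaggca
SOX4: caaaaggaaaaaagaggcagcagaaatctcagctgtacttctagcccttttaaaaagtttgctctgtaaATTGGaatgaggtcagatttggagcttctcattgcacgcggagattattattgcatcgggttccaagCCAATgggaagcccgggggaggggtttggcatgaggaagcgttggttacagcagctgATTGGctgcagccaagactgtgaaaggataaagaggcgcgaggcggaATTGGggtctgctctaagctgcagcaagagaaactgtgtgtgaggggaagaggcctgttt

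The SOX2 window is GC-rich, with 63.3% G or C and 20 CG dinucleotides, while the SOX4 window has 49.3% and 8. The medians over all 35116 promoters of the table were 58.7% and 14. SOX4 holds 4 CCAAT boxes and SOX2 holds 1, and 34.6% of all promoters hold at least 1 on either strand. Of the 9 genes, 5 had a promoter in the table (SOX2, SOX4, SOX12, SOX13 and SOX21). The SOX core AACAAT, found in 10.1% of all promoters on either strand, is not spelled in these 5 windows. The TATA box letters TATAAA, found in 11.5%, occur once, in SOX21. These are matches of letters and not measured binding sites, and the absence of a match says only that these letters are not in this window.

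SOX2, a gene of 1 exon on chromosome 3 (GRCh37, 181429713 to 181432224, plus strand, 2512 bases), was close to the detection limit in CAL-29 control cells. The siCtrl libraries held 6.5, 15 and 7 counts of SOX2, which is 0.277, 0.571 and 0.258 CPM. The siKMT9α libraries held 411, 472 and 343 counts, which is 13.1, 14.2 and 13.5 CPM. Every siKMT9α library was far above every siCtrl library, and the groups did not overlap. The mean was 0.369 ± 0.176 CPM with siCtrl and 13.6 ± 0.537 CPM with siKMT9α (SD, n = 3), 36.0-fold or 5.17 on the log2 scale (SE 0.19). This was rank 8 from the top among 14682 genes tested in CAL-29. Since the control value rests on 28.5 counts over 3 libraries, the size of the fold is less certain than the level reached after knockdown.

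In 5637 cells SOX2 was already measurable with siCtrl, at 4.74, 5.86 and 4.55 CPM, and was at 20.8, 19.7 and 18.2 CPM with siKMT9α. The groups did not overlap here either. The mean went from 5.05 ± 0.708 to 19.6 ± 1.30 CPM (SD, n = 3), 3.88-fold or 1.96 on the log2 scale (SE 0.09), which was rank 31 among 14367 genes tested. The level of SOX2 with siCtrl was 13.7 times as high in 5637 as in CAL-29, and with siKMT9α it was 1.44 times as high. The 5637 libraries were above the CAL-29 libraries in both cases.

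SOX2 lies within the span of SOX2-OT, a long noncoding RNA gene on the same strand, but no annotated exon of another gene overlaps the exon of SOX2. SOX2-OT itself had 1, 1 and 0 counts in the CAL-29 siCtrl libraries and 5, 3 and 7 counts in the siKMT9α libraries. In 5637 it had 4, 12 and 7 counts with siCtrl and 4.5, 8.5 and 2.5 counts with siKMT9α. These counts are too few for the gene to be tested. In CAL-29 every siKMT9α library had more SOX2-OT counts than every siCtrl library, and in 5637 the groups overlapped.

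SOX21, the other SOXB gene of the set (chromosome 13, 95361876 to 95364799, minus strand), encodes a protein that mostly represses transcription and often opposes SOX2. In CAL-29 it was at 2.69, 3.62 and 2.83 CPM with siCtrl and at 4.47, 3.09 and 3.18 CPM with siKMT9α, with a log2 difference of 0.22 (SE 0.19). These groups overlapped. In 5637 it had 0, 0 and 1 counts with siCtrl and 0, 3 and 1 counts with siKMT9α, too few to be tested.

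**Figure D1:**
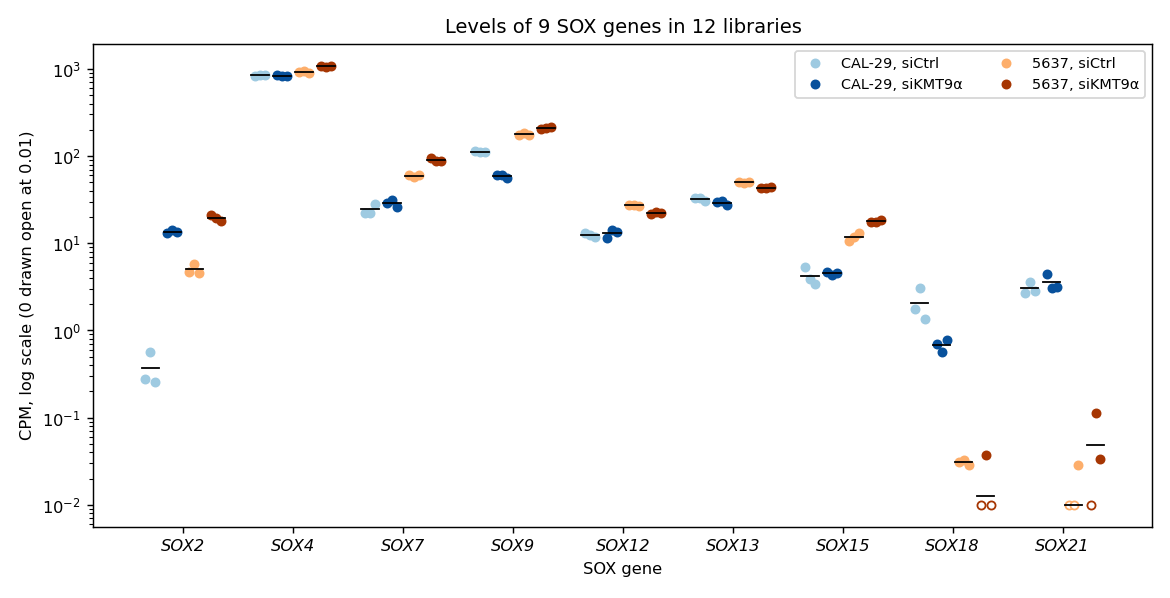
Level of each of the 9 SOX genes in every library, in CPM on a log axis, for CAL-29 and 5637 cells treated with siCtrl or siKMT9α; points are libraries and bars are the means of 3. SOX2 sits below 1 CPM in the CAL-29 siCtrl libraries and at 13.1 to 14.2 CPM in the siKMT9α libraries, while SOX4 stays between 835 and 1082 CPM throughout.

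SOX4 (chromosome 6, 21593982 to 21598850, plus strand), a SOXC factor that supports progenitor survival and is overexpressed in many carcinomas, was by far the most abundant member. In CAL-29 it was at 836, 860 and 847 CPM with siCtrl and at 844, 835 and 837 CPM with siKMT9α, with a log2 difference of -0.03 (SE 0.05). In 5637 SOX4 was at 916, 946 and 894 CPM with siCtrl and at 1069, 1050 and 1082 CPM with siKMT9α, a log2 difference of 0.21 (SE 0.03). The CAL-29 groups overlapped, and in 5637 all siKMT9α libraries were above all siCtrl libraries by a small margin. SOX12, the weaker SOXC activator (chromosome 20, 306196 to 310868, plus strand), overlapped in CAL-29, with a mean of 12.5 ± 0.743 CPM with siCtrl and 13.0 ± 1.29 CPM with siKMT9α (SD, n = 3). In 5637 its siKMT9α libraries, at 21.7, 23.1 and 22.4 CPM, were all below the siCtrl libraries, at 27.8, 27.8 and 26.7 CPM, with a log2 difference of -0.29 (SE 0.06). The SOXC genes of 5637 thus differed in opposite directions.

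SOX9 (chromosome 17, 70117161 to 70122557, plus strand), which directs cartilage and testis development and marks progenitors in several epithelia, was the second most abundant member. In CAL-29 it was at 114, 111 and 110 CPM with siCtrl and at 60.9, 59.9 and 56.2 CPM with siKMT9α. The 5637 values were 176, 184 and 177 CPM with siCtrl and 203, 210 and 214 CPM with siKMT9α. The groups did not overlap in either line, and SOX9 was lower after knockdown in CAL-29 and higher in 5637. The log2 difference was -0.94 (SE 0.05) in CAL-29, a fold of 0.522, and 0.22 (SE 0.03) in 5637, a fold of 1.17. As a result the ratio of SOX9 between 5637 and CAL-29 was 1.60 with siCtrl and 3.54 with siKMT9α, whereas that of SOX2 narrowed. Of 7 chondrocyte markers, a cell type that depends on SOX9 (COL2A1, COL9A1, COL11A2, ACAN, MATN3, COMP and HAPLN1), 3 had a mean of at least 1 CPM in CAL-29 siCtrl cells and 2 in each other group. MATN3 led them in every group, and COL9A1 and HAPLN1 were at 0 in all groups. Their summed level was 18.8 to 22.6 CPM with siCtrl and 5.10 to 8.05 CPM with siKMT9α in CAL-29, and 15.3 to 16.3 and 11.1 to 13.3 CPM in 5637. The part of these markers in the SOX9 values was not tested.

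SOX7 and SOX18 are SOXF genes with roles in vessel formation, and SOX7 is also described as a tumor suppressor that binds β-catenin. SOX7 (chromosome 8, 10581278 to 10588021, minus strand) was at 22.2, 22.5 and 28.6 CPM in CAL-29 siCtrl libraries and at 28.9, 31.4 and 26.1 CPM in siKMT9α libraries. In 5637 SOX7 was at 61.2, 56.8 and 61.1 CPM with siCtrl and at 95.4, 87.0 and 88.5 CPM with siKMT9α. Its groups overlapped in CAL-29, with a log2 difference of 0.22 (SE 0.09), and were apart in 5637, with 0.59 (SE 0.04). Of the exon bases of SOX7, 39.4% are shared with exons of PINX1 on the same strand in the annotation, so its counts cannot be assigned to SOX7 with certainty. PINX1, a telomerase inhibitor, rose at an adjusted p below 0.05 in both lines, with a log2 fold change of 0.55 in CAL-29 (adjusted p = 0.000186, edgeR) and 0.42 in 5637 (adjusted p = 0.000147, edgeR). The mean level of PINX1 went from 7.55 to 11.2 CPM in CAL-29 and from 9.12 to 12.2 CPM in 5637. The part of PINX1 in the SOX7 values was not tested.

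SOX18 (chromosome 20, 62678935 to 62680992, minus strand), a regulator of lymphatic vessels, was low in CAL-29 and at no more than 1 count per library in 5637. The CAL-29 siCtrl libraries had 44.5, 80.5 and 36.5 counts, or 1.78, 3.08 and 1.36 CPM, and the siKMT9α libraries had 22, 19 and 19.5 counts, or 0.703, 0.571 and 0.784 CPM. All siKMT9α libraries were below all siCtrl libraries, with a log2 difference of -1.62 (SE 0.31), and siCtrl replicate 2 lay well above the other controls. In 5637 SOX18 had 1 count in each siCtrl library and 0, 1 and 0 counts with siKMT9α. Of 8 endothelial markers (PECAM1, CDH5, VWF, CLDN5, KDR, TEK, EMCN and ROBO4), 1 had a mean of at least 1 CPM in CAL-29 siCtrl cells, namely KDR at 10.5 CPM. Their summed level there was 11.3 to 13.9 CPM, against 5.30 to 6.94 CPM with siKMT9α. For 5637 it was 4.43 to 4.86 CPM with siCtrl and 1.72 to 2.15 CPM with siKMT9α. CDH5 went against the sum in CAL-29, from 0.677 to 3.77 CPM, and was the highest of these markers there after knockdown. EMCN was at 0 in 3 of the 4 groups, and the part of these markers in the SOX18 and SOX7 values was not tested.

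SOX15 (chromosome 17, 7491496 to 7493412, minus strand), which can replace SOX2 at some sites and acts in muscle and placenta, was at 5.34, 3.92 and 3.42 CPM with siCtrl and at 4.70, 4.33 and 4.51 CPM with siKMT9α in CAL-29. Its 5637 values were 10.6, 11.7 and 13.1 CPM with siCtrl and 17.8, 17.5 and 18.7 CPM with siKMT9α. The CAL-29 groups overlapped, with a log2 difference of 0.08 (SE 0.16), and the 5637 groups were apart, with 0.61 (SE 0.08), or 1.52-fold. Exons of SOX15 overlap those of MPDU1 on the opposite strand over 35 bases, and SOX4 overlaps a noncoding RNA on the opposite strand over 168 bases. Whether the counting used strand is not given in the sources used here, so reads in these short overlaps are uncertain.

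SOX13 (chromosome 1, 204042243 to 204096871, plus strand), a SOXD factor that lacks a transactivation domain and binds TCF proteins, was lower after knockdown in every library of both lines. In CAL-29 it was at 33.0, 33.3 and 30.8 CPM with siCtrl and at 29.5, 30.4 and 27.6 CPM with siKMT9α, with a log2 difference of -0.17 (SE 0.07). In 5637 it was at 50.3, 49.6 and 51.0 CPM with siCtrl and at 43.2, 43.1 and 44.1 CPM with siKMT9α, with -0.21 (SE 0.05). SOX13 was also the member whose longest annotated 3′ UTR spells the heptamer complementary to bases 2 to 8 of the antisense strand of the KMT9α siRNA that the results name for the RNAseq. That heptamer, ACATTCA, is at bases 143 to 149 of 1609 and is shown in capitals in the mRNA sense, since siRNAs can reduce mRNAs through such matches.
SOX13: cacttgcagatACATTCAtgaggggagag

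The heptamer was not found in the longest 3′ UTR of the other 8 members, SOX2 and SOX9 included. It occurs in 1910 of 12409 genes tested in both lines that have an annotated 3′ UTR, or 15.4%. Whether the match bears on the level of SOX13 was not tested, and the column headers name the siRNA by a code that the methods do not explain.

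Counted over the set, 2 of 9 members tested in CAL-29 were past an unadjusted p of 1e-06, SOX2 higher and SOX9 lower, where 29.9% of all 14682 genes tested were. In 5637, 5 of 7 members tested were past it, SOX2, SOX4, SOX7, SOX9 and SOX15, all of them higher, where 17.9% of all 14367 genes were called higher and 35.4% were called in either direction. At an adjusted p of 0.05 these counts were 5 of 9 in CAL-29, against 69.5% of all genes, and 7 of 7 in 5637, against 70.6%. The libraries did not overlap for 4 of 9 members in CAL-29 and for 7 of 7 in 5637, against 72.4% of all genes in each line. In CAL-29, 1 of these was higher and 3 were lower after knockdown, where 36.8% and 35.6% of all genes were. In 5637, 5 were higher and 2 lower, where 36.0% and 36.4% of all genes were. Nothing is read from these counts, because the members were chosen from the same contrasts. The 5637 count at 1e-06 was 3 without siCtrl replicate 3, when SOX4 and SOX9 missed the threshold, and 2 without siKMT9α replicate 3, when SOX15 did as well. The median log2 difference of the members tested was 0.05 in CAL-29 and 0.22 in 5637, beside -0.02 and -0.01 over all genes.

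**Figure D2:**
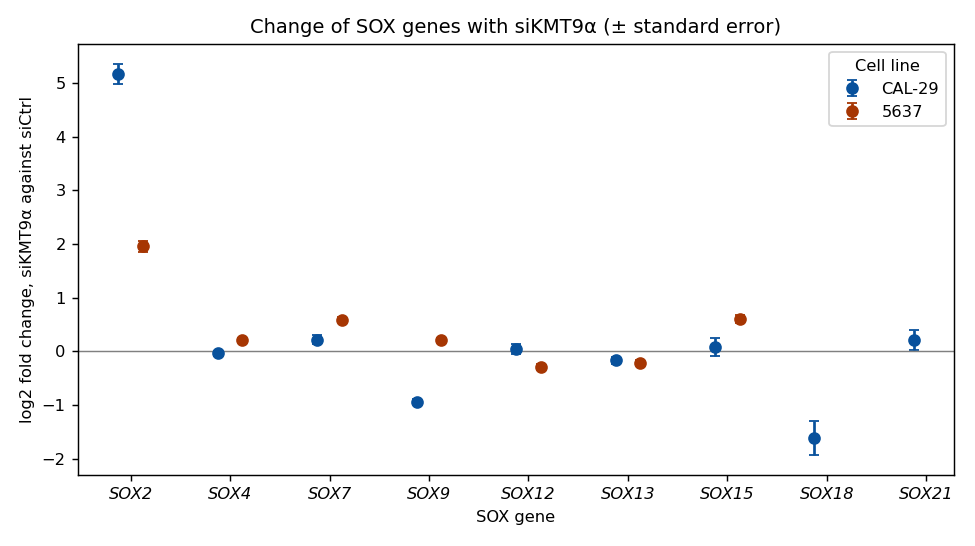
Log2 fold change of each SOX gene after KMT9α knockdown (siKMT9α minus siCtrl) in CAL-29 and 5637 cells, with bars of 1 SE from edgeR. SOX2 stands at 5.17 in CAL-29 and 1.96 in 5637, SOX9 lies on opposite sides of 0 in the 2 lines, and SOX18 and SOX21 have no value in 5637.

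The control cells of both lines were compared with each other next. The choice of SOX2 rests in part on its low control level in CAL-29, and the control libraries are those of the knockdown comparison, so its difference between the lines is given without a test. Of the 9 members, 8 were past an unadjusted p of 1e-06 in this comparison, where 55.2% of all 15101 genes tested were. SOX2, SOX7, SOX9, SOX12, SOX13 and SOX15 were higher in 5637, as 28.3% of all genes were, and SOX18 and SOX21 were higher in CAL-29, as 26.9% were. An adjusted p below 0.05 gave the same 8 members, against 85.1% of all genes. The libraries of the lines did not overlap for any of the 9, against 85.6% of all genes tested, made up of 43.2% higher in 5637 and 42.4% higher in CAL-29. Nothing is read from these counts, since they include SOX2 and since SOX18 and SOX21 passed the filter on low counts through CAL-29 alone.

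The log2 difference, CAL-29 minus 5637, was -3.75 for SOX2 (SE 0.26). For the members with counts in both lines other than SOX2 it was -1.48 for SOX15 (SE 0.14, adjusted p = 7.28e-09, edgeR), -1.28 for SOX7 (SE 0.08, adjusted p = 3.99e-12) and -1.13 for SOX12 (SE 0.07, adjusted p = 1.8e-11). SOX9 and SOX13 had values of -0.67 (SE 0.05, adjusted p = 3.29e-11) and -0.63 (SE 0.06, adjusted p = 2.17e-09). For SOX4 the log2 difference was -0.11 (SE 0.05) and missed the adjusted threshold (adjusted p = 0.0522). The control libraries behind these p-values are also part of the knockdown comparison from which the members were chosen. The p-values are therefore not independent of that choice.

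SOX18 and SOX21 were close to absent from the 5637 control libraries, so their folds are limited by counting and no p is given. SOX21 had 239.5 counts in CAL-29 and 1 in 5637 over 3 libraries each, a ratio of 296 after scaling with a 95% counting interval of 52.8 to 11779. Its fitted log2 difference was 7.72, and 9.43 without 5637 siCtrl replicate 3, the library with that count. SOX18 had 161.5 and 3 counts, a ratio of 66.6 with an interval of 22.5 to 327. Such intervals cover counting error only. The SOXD gene SOX5, which is not a member, went the other way. It had 0 counts in the CAL-29 control libraries and 450.5 in 5637. Against a floor of 3 counts over the group SOX5 was 121-fold higher in 5637, and its 95% counting interval began at 98.2.

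**Figure D3:**
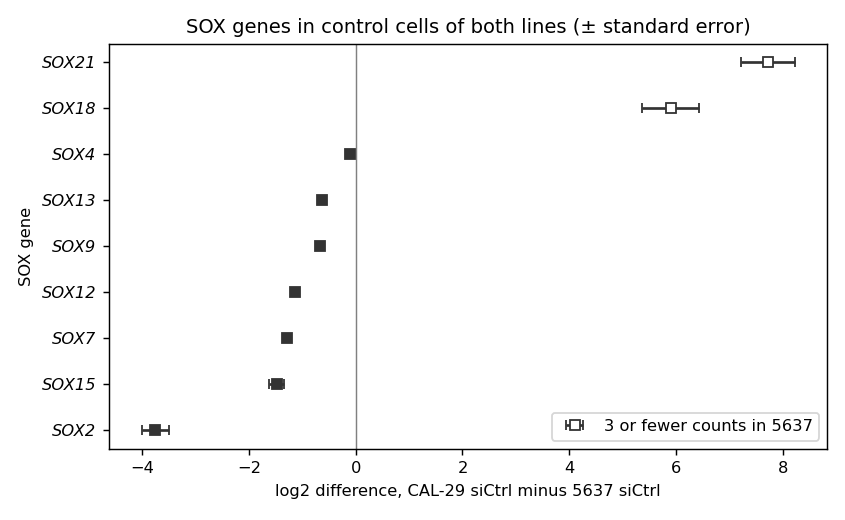
Log2 difference between CAL-29 and 5637 siCtrl cells for each of the 9 SOX genes, with bars of 1 SE from edgeR; values above 0 are higher in CAL-29, and open symbols mark genes with 3 or fewer counts in 5637, whose size depends on the fit. SOX2 has the lowest value at -3.75, SOX4 is nearest to 0 at -0.11, and SOX18 and SOX21 are the members higher in CAL-29.

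Per kilobase of transcript, SOX4 led in every group and SOX9 came second. SOX4 made up 77.0% of the summed CPM per kilobase of the 9 genes in CAL-29 siCtrl cells and 79.5% in siKMT9α cells, and 66.9% and 65.0% in 5637. SOX9 made up 12.6% and 6.93% in CAL-29 and 16.1% and 15.7% in 5637. SOX2 was last of the 9 in CAL-29 siCtrl cells, with 0.147 ± 0.0699 CPM per kilobase (SD, n = 3), and was at place 5 with siKMT9α, with 5.41 ± 0.214. In 5637 it went from place 7, with 2.01 ± 0.282 CPM per kilobase, to place 6, with 7.79 ± 0.519. In CAL-29 siCtrl cells the order SOX4, SOX9, SOX13, SOX7, SOX15, SOX12, SOX18, SOX21, SOX2 had neighbours whose libraries overlapped at SOX13 and SOX7, at SOX15 and SOX12, and at SOX18 and SOX21. In CAL-29 siKMT9α cells, and for the 7 members above background in 5637, neighbours in the order did not overlap.

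The genes whose pattern over the 12 libraries was most like that of SOX2 were TMC5, TNIP3, LAIR1, PIR and SLC18B1, out of 15410 genes compared. Likeness was the root mean square difference of log2 CPM after centring each gene on its own mean, which was 0.868 for TMC5 and 0.953 for SLC18B1, against a median of 2.33 over the genes compared. TMC5, a transmembrane channel-like protein, had mean levels of 0.280 and 2.60 CPM in CAL-29 siCtrl and siKMT9α cells and of 4.03 and 8.49 CPM in 5637. TNIP3, an NF-κB inhibitor, was at 0 and 0.486 CPM in CAL-29 and at 0.833 and 1.25 CPM in 5637. PIR, an iron-binding nuclear protein, had means of 1.48 and 9.36 CPM in CAL-29 and of 8.10 and 26.1 CPM in 5637. SLC18B1, a polyamine transporter, was at 3.76 and 25.8 CPM in CAL-29 and at 19.0 and 59.0 CPM in 5637. All of these were lowest in CAL-29 control cells and highest in 5637 cells after knockdown, as SOX2 was. The middle groups differed. TMC5 and TNIP3 were higher in 5637 control cells than in CAL-29 cells after knockdown, while SOX2, PIR and SLC18B1 were lower. LAIR1, an inhibitory immune receptor, had a highest group mean of 0.630 CPM and was at rank 22 when a prior count of 2 was used. By this measure none of the other 8 SOX genes was near, with values between 1.89 for SOX7 and 4.79 for SOX21. By group means, SOX7 and SOX15 were also lowest in CAL-29 control cells and highest in 5637 cells after knockdown. Their differences between groups were smaller than those of SOX2. That order is therefore not particular to the 5 genes, which were picked for their likeness to SOX2.

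**Figure D4:**
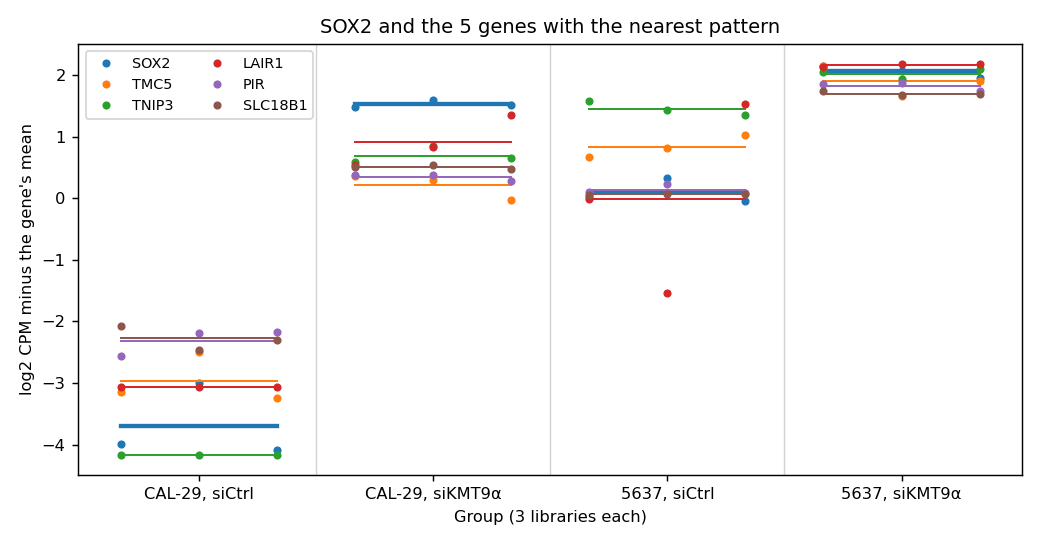
Log2 CPM of SOX2 and of the 5 genes nearest to it in pattern, each centred on its mean over the 12 libraries and plotted by library in the groups CAL-29 siCtrl, CAL-29 siKMT9α, 5637 siCtrl and 5637 siKMT9α. SOX2 has its lowest values in the CAL-29 siCtrl libraries and its highest, from 1.96 to 2.15, in the 5637 siKMT9α libraries.

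Of the 10 other SOX genes listed, 8 were tested in neither line, and SOX1, SOX3, SOX11 and SOX14 were at 0 in all 12 libraries. SOX6, which acts with SOX5 and SOX9 in cartilage, was at 0.119, 0.228 and 0.258 CPM in CAL-29 siCtrl libraries and at 1.02, 1.44 and 1.37 CPM in siKMT9α libraries. In 5637 SOX6 was at 0.815, 0.589 and 0.801 CPM with siCtrl and at 0.306, 0.188 and 0.201 CPM with siKMT9α. The groups were apart in both lines and in opposite directions. At an adjusted p below 0.05, SOX6 rose in CAL-29 with a log2 fold change of 2.62 (SE 0.39, adjusted p = 4.24e-06, edgeR), and in 5637 it fell by 1.66 (SE 0.38, adjusted p = 0.000365, edgeR). Neither was past 1e-06, and the fit in CAL-29 used another transcript of SOX6 than the levels. SOX5 in 5637 had means of 4.67 and 3.88 CPM, with a log2 difference of -0.26 (SE 0.14, adjusted p = 0.105, edgeR).

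Partners, pluripotency factors and described target genes of SOX proteins were examined next, together with the other SOX genes, as a list of 52 genes. In CAL-29, 27 were tested, and at 1e-06 5 rose and 9 fell, where 14.9% and 15.0% of all genes tested did. In 5637, 26 were tested, and 6 rose and 8 fell, where 17.9% and 17.5% of all genes did. The median log2 fold change of the genes tested was -0.20 in CAL-29 and -0.21 in 5637. Of the 24 genes tested in both lines, 11 were past the threshold in both, where 18.6% of all 13699 genes tested in both lines were. Of these 3 were higher in both lines, 6 were lower in both and 2 went in opposite directions, where 8.39%, 8.43% and 1.74% of all genes did. Nothing is read from these counts or from those by list below, because the lists were chosen with earlier results of these data known. Most genes named below were picked for being past 1e-06 in both lines, so their p-values are not independent of that choice.

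Of 9 partner genes tested in each line, 1 rose and 4 fell at 1e-06 in CAL-29, where 14.9% and 15.0% of all genes did. In 5637, 3 rose and 2 fell, where 17.9% and 17.5% of all genes did. TP63, the master factor of basal and squamous epithelium and a partner of SOX2 in squamous carcinoma, was at 184, 202 and 218 CPM in CAL-29 siCtrl libraries and at 125, 127 and 125 CPM in siKMT9α libraries. In the 5637 libraries it was at 128, 129 and 126 CPM with siCtrl and at 165, 162 and 165 CPM with siKMT9α. The groups did not overlap, and in CAL-29 TP63 fell by 0.70 on the log2 scale (SE 0.05, adjusted p = 3.43e-10, edgeR) and in 5637 it rose by 0.36 (SE 0.03, adjusted p = 1.14e-10, edgeR). POU2F1, a broadly expressed octamer-binding factor, rose in both lines, by 0.55 in CAL-29 (SE 0.06, adjusted p = 2.14e-07) and by 0.62 in 5637 (SE 0.05, adjusted p = 5.63e-11). The POU2F1 transcript used in both lines is a noncoding entry of RefSeq. With all transcripts of the symbol summed, the log2 fold change was 0.55 in CAL-29 and 0.62 in 5637. TCF7, a transcription factor of the WNT pathway, fell by 2.35 in CAL-29 (SE 0.27, adjusted p = 1.61e-07), from 2.75 to 0.544 CPM. In 5637 TCF7 fell by 1.42 (SE 0.06, adjusted p = 1.71e-17), from 41.3 to 15.5 CPM. FHL3, a LIM protein that binds SOX15, fell by 1.25 in CAL-29 (SE 0.11, adjusted p = 1.36e-09) and fell by 0.68 in 5637 (SE 0.08, adjusted p = 1.92e-08).

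Of the pluripotency factors, 6 were tested in CAL-29, where 1 rose and 1 fell at 1e-06, against 14.9% and 15.0% of all genes. In 5637, 5 were tested and 2 rose, against 17.9% of all genes. MYC rose in both lines, from 67.7 ± 2.71 to 111 ± 2.43 CPM in CAL-29 (log2 0.70, SE 0.05, adjusted p = 6.65e-11, edgeR) and from 313 ± 11.1 to 460.03 ± 19.8 CPM in 5637 (0.56, SE 0.03, adjusted p = 2.89e-14; SD, n = 3). The other calls were those of SALL4, a zinc finger partner of the pluripotency network that fell by 0.82 in CAL-29 (adjusted p = 1.3e-08), and of KLF4, an epithelial differentiation factor that rose by 1.09 in 5637 (adjusted p = 5.29e-20). Of 7 embryonic stem cell markers (POU5F1, NANOG, LIN28A, SALL4, PRDM14, ZFP42 and DPPA4), 2 had a mean of at least 1 CPM in CAL-29 and 1 in 5637. SALL4 led them in every group, at 17.3 to 30.2 CPM, and DPPA4 was at 0 in all groups. The summed level of these markers was 29.1 to 35.9 CPM with siCtrl and 18.4 to 21.3 CPM with siKMT9α in CAL-29, and 17.2 to 19.9 and 18.3 to 18.8 CPM in 5637.

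Of the described target genes, 11 were tested in CAL-29, where 3 rose and 4 fell at 1e-06, against 14.9% and 15.0% of all genes. In 5637, 10 were tested, where 1 rose and 6 fell, against 17.9% and 17.5% of all genes. NES, the intermediate filament gene of neural progenitors with a SOX2-bound enhancer, was at 73.3, 74.0 and 72.2 CPM in CAL-29 siCtrl libraries and at 4.89, 5.08 and 4.43 CPM in siKMT9α libraries. In 5637 it was at 4.39, 4.48 and 4.55 CPM with siCtrl and at 1.19, 0.791 and 1.21 CPM with siKMT9α. The groups were far apart in both lines, and NES fell by 3.94 on the log2 scale in CAL-29 (SE 0.07, adjusted p = 9.22e-20, edgeR) and fell by 2.07 in 5637 (SE 0.18, adjusted p = 2.61e-11, edgeR). TUBB3, a neuronal tubulin described as a SOXC target, fell by 1.31 in CAL-29 (SE 0.05, adjusted p = 1.13e-15) and fell by 0.69 in 5637 (SE 0.04, adjusted p = 3.04e-14). TEAD2, a partner of YAP and described SOX4 target, fell by 0.65 in CAL-29 (SE 0.06, adjusted p = 2.76e-09) and fell by 0.31 in 5637 (SE 0.04, adjusted p = 1.82e-08). NR2F2, a nuclear receptor of venous identity linked to SOX18, fell by 0.70 in CAL-29 (SE 0.05, adjusted p = 3.3e-11) and fell by 0.66 in 5637 (SE 0.04, adjusted p = 5.62e-15). EZH2, the methyltransferase of the Polycomb complex, rose by 0.46 in CAL-29 (SE 0.05, adjusted p = 2.33e-07) and by 0.36 in 5637 (SE 0.04, adjusted p = 1.34e-09).

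CDH5, the cadherin of endothelial junctions and a described SOXF target, was low in all groups. It was at 0.910, 0.533 and 0.589 CPM in CAL-29 siCtrl libraries and at 3.48, 3.79 and 4.04 CPM in siKMT9α libraries. In 5637 it had 34, 33.5 and 50.5 counts with siCtrl and 0.5, 0.5 and 3 counts with siKMT9α. CDH5 thus rose in CAL-29, with a log2 fold change of 2.45 (SE 0.24, adjusted p = 1.11e-08, edgeR), and in 5637 it fell by 4.24 (SE 0.46, adjusted p = 3.73e-09, edgeR), the size of the latter resting on 4 counts after knockdown.

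**Figure D5:**
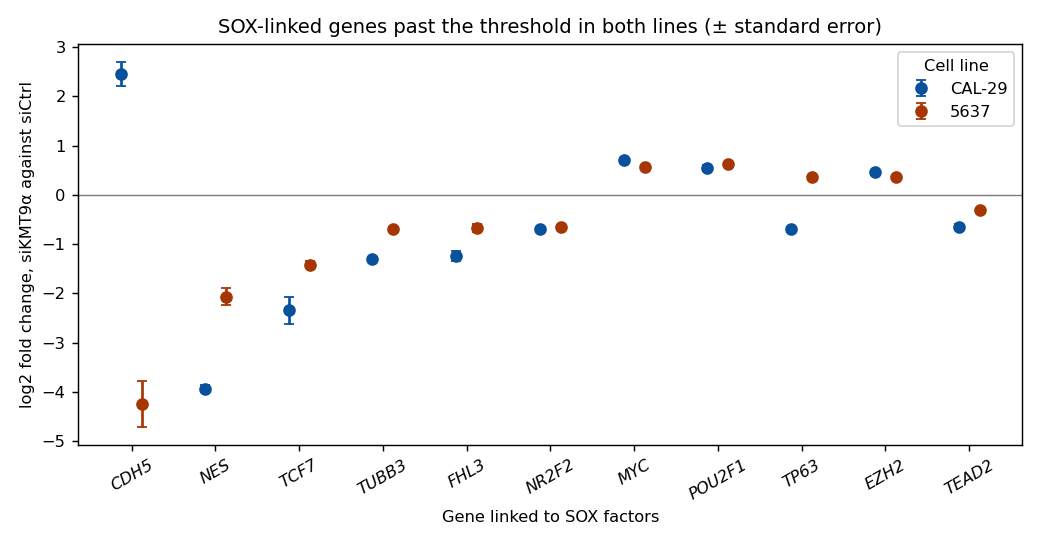
Log2 fold change after KMT9α knockdown (siKMT9α minus siCtrl) in CAL-29 and 5637 cells for the 11 partner, pluripotency and target genes past p of 1e-06 in both lines, with bars of 1 SE from edgeR. NES, TCF7, TUBB3, FHL3, NR2F2 and TEAD2 lie below 0 in both lines, MYC, POU2F1 and EZH2 lie above 0 in both, and CDH5 and TP63 lie on opposite sides.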

How the data were processed

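The authors aligned reads to hg19 with STAR, counted them with HOMER and tested them with edgeR. Per the file headers, the deposited tables hold estimated counts for 37400 RefSeq transcripts, without normalization and in steps of 0.5. The deposited p-value (raw and adjusted) and log2 columns hold the authors' own comparisons and were not used.

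Columns were matched to samples by line, control or KMT9α siRNA, and the replicate number of the title, since titles and descriptions number the knockdown replicates differently. One transcript per symbol (most counts over the libraries of a fit) was kept and rounded to whole counts. Library totals were summed before rounding, and CPM were computed after it. With edgeR 4.0.16 (R 4.3.3), TMM scaling, filterByExpr and the quasi-likelihood test were run over all genes, called at an unadjusted p below 1e-06, the study's threshold, with Benjamini-Hochberg adjusted p-values beside it. The SE is the log2 fold change divided by the square root of F. The steps were tested on simulated data.

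The 9 members and the gene lists were chosen with earlier results of these data known. Named list genes were those past 1e-06 in both lines, up to 12, plus each other SOX gene tested. SALL4 and KLF4 were added after their values were seen. Positions and 3′ UTRs are from GENCODE on GRCh37. Replicates differed by more than sampling noise (chi-square per degree of freedom 2.25 to 12.3, the upper end from CAL-29 siCtrl replicate 1), so for well-counted genes the replicate spread, not depth, limits precision. Alternatives were other scalings, filters, tests, DESeq2 1.42.0 and leaving out each library. A list of neural progenitor markers is not reported here.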

Additional observations from a re-analysis of the deposited data

Results flagged for a closer look

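The knockdown response was compared between the lines for the 11 list genes past 1e-06 in both lines and for SOX6. SALL4, KLF4 and SOX5 were not compared, so list genes past 1e-06 in only 1 line are not covered. The difference of the log2 fold changes, CAL-29 minus 5637, was tested as an interaction term in 1 edgeR quasi-likelihood fit of the 12 libraries for 12 genes, of which 5 were past an unadjusted p of 1e-06. It was 6.71 for CDH5 (SE 0.49), which rose in CAL-29 and fell in 5637 in all 3 libraries of each line. It was -1.05 for TP63 (SE 0.06), which fell in CAL-29 and rose in 5637. Both are among the 5, but they were named for being past 1e-06 in each line of the same libraries. Since those changes were in opposite directions, their interaction p was fixed in advance and is not given. For SOX6, another gene that moved in opposite directions, the difference was 4.29 (SE 0.54). SOX6 is among the 5 as well, but its opposite changes had an adjusted p below 0.05 in each line of the same libraries. Its interaction p is therefore not given either. The size of the difference rests on 16 counts in CAL-29 siCtrl cells and 19 in 5637 siKMT9α cells. NES and TUBB3 fell in both lines and by more in CAL-29, with -1.86 for NES (SE 0.20, adjusted p = 5.47e-09) and -0.60 for TUBB3 (SE 0.06, adjusted p = 2.92e-09). TEAD2 (-0.32, adjusted p = 0.000196), FHL3 (-0.55, adjusted p = 0.00108), TCF7 (-0.92, adjusted p = 0.00296) and MYC (0.16, adjusted p = 0.0344) had an adjusted p below 0.05 in the same edgeR fit but were not past 1e-06. SOX9 was lower in every CAL-29 library after knockdown, with a log2 difference of -0.94, and higher in every 5637 library, with 0.22. That difference was not tested, nor was that of SOX2, because the knockdown values of the 9 SOX genes were used to choose them.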

How the results depend on the processing

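No result changed direction past its threshold under any alternative run. Of the small differences in CAL-29 that were not past it, some changed sign between settings. These were SOX4 (-0.06 to 0.05), SOX12 (-0.02 to 0.13) and SOX15 (-0.05 to 0.28), whose direction in CAL-29 is not settled. The log2 difference of SOX2 lay between 4.97 and 5.63 over 15 alternatives in CAL-29 and between 1.89 and 2.07 over 16 in 5637. With at least 10 counts in every library, 1 of the members was past 1e-06 in CAL-29 and 5 in the control comparison of the lines, because SOX2, and in the latter also SOX18 and SOX21, were no longer tested. At an adjusted p below 0.05 the CAL-29 count was 5. In 5637 the count of 5 became 2 in a joint model of 12 libraries, 2 with all transcripts of a symbol summed, 3 with scaling by total counts and 3 with upper quartile scaling; the cause was not tested. Leaving out each library in turn gave 2 to 2 members in CAL-29, 2 to 5 in 5637 and 8 to 8 in the control comparison, and 10 to 16 linked genes in CAL-29 and 14 to 15 in 5637. TCF7, POU2F1 and EZH2 missed 1e-06 in CAL-29 without some libraries, and TEAD2 missed it in 5637 with transcripts summed, with the direction kept. Among the linked genes named in both lines these were 9 values in all. The log2 differences of the members, judged by size and not by call, moved by more than the replicate spread in 11 cases, each under scaling by total counts or upper quartile. Deviations of libraries with the same replicate number had correlations of -0.0174 to 0.0648, and those with different numbers -0.0461 to 0.0512. Between the control groups of the lines the same-number correlations were 0.0345 to 0.0541, and the others -0.0320 to -0.00202. All were small, so the numbers were not taken as pairs. With a replicate block, 3 members were called in CAL-29, 5 in 5637 and 8 in the control comparison, and 16 and 14 linked genes. Depth limits SOX2 in CAL-29 control cells, SOX18, SOX21, SOX6 and CDH5.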
